A study of Mus musculus with 12 samples.

Results

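Genes that respond to neuronal activity were examined in the olfactory mucosa of mice with and without the class I odorant receptor enhancer A. The 9 genes were chosen by name and comprise S100a5, Pcp4l1, Fos, Fosb, Junb, Egr1, Nr4a1, Arc and Npas4, which are 9 of the 46297 gene rows in the table. The samples were olfactory mucosae of 12 male mice of the strain labelled 129S6;C57BL/6J at postnatal day 30, 6 of genotype wildtype and 6 of genotype enhancer A deletion. In the deletion group a stretch of 912 bp was removed on chromosome 7, from 102509701 to 102510612. Whether 1 or both copies of the enhancer were removed, and what odours the animals met before dissection, is not stated in the labels. Total RNA of the whole mucosa was depleted of ribosomal RNA and made into stranded libraries.

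An active neuron admits calcium, which switches on kinases that phosphorylate transcription factors already bound at certain promoters. The genes that follow within minutes are the immediate early genes. Fos, Fosb and Junb encode subunits of the AP-1 transcription factor, Egr1 a zinc finger factor, Nr4a1 an orphan nuclear receptor, Npas4 a factor of the bHLH-PAS family known for its dependence on calcium entry, and Arc a protein that moves receptors at synapses. Most of them are used by many cell types when stimulated, not by neurons alone. S100a5, a calcium-binding protein with EF-hands, and Pcp4l1, a small protein with an IQ motif, are of another kind: both are carried by mature olfactory sensory neurons, where their RNA is known to depend on odour-driven activity over longer times.

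Cyclic AMP, the messenger of odorant receptors, acts on promoters through the cAMP response element (CRE), whose palindrome is TGACGTCA and whose core is TGACG. Promoter sequences of 7 of the 9 genes, all but Egr1 and Arc, were taken from RefSeq on build GRCm38.p6, as the 250 bases before the annotated start, and searched on both strands. The core TGACG was found in 5 of them, those of Fos, Fosb, Junb, Nr4a1 and Npas4, against 17.8% of 32851 promoters of the same length. Neither S100a5 nor Pcp4l1 held it. TGACG holds the letters CG, and the 32851 promoters were not matched to the 7 for base composition, whose part was not tested. The full CRE was in none of the 7 (1.55% of all promoters), nor was the AP-1 site TGANTCA (6.75%) or the CArG box of serum response factor (1.47%). The TATA box TATAAA stood in that of Fos alone (12.4% of all promoters). A match is only a match of letters, and a core also lies within every full CRE. Sites outside these 250 bases were not searched, so absence here does not mean that a gene lacks the site. Shown are the promoters of Fos and Fosb and those of S100a5 and Pcp4l1, since these pairs went together across libraries, as described further on. Capitals mark the core TGACG, and each sequence runs 5′ to 3′ along the gene's own strand.
Fos, chr12:85473640-85473889, plus strand: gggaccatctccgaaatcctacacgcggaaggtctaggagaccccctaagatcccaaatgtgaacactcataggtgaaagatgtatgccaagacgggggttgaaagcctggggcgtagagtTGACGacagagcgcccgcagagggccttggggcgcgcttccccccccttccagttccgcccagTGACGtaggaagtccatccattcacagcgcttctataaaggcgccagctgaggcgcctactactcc
Fosb, chr7:19310046-19310295, minus strand: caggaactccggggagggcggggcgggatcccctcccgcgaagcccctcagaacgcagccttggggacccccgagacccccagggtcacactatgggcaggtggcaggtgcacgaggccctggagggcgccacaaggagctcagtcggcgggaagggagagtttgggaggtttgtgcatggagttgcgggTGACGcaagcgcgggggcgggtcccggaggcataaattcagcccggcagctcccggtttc
S100a5, chr3:90608272-90608521, plus strand: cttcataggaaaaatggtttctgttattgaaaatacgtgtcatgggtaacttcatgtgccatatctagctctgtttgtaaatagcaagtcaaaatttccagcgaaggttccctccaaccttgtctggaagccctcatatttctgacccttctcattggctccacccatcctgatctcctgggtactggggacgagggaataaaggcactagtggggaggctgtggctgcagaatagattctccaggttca
Pcp4l1, chr1:171196269-171196518, minus strand: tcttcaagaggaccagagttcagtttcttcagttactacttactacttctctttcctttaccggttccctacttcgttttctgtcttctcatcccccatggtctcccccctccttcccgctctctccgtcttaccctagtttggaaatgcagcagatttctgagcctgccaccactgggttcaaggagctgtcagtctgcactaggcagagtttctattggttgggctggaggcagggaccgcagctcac
In Fos the cores began 129 and 66 bases before the start, and in Fosb the core began 60 bases before it. Nr4a1 held 4 cores, Npas4 2 and Junb 1.

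The comparison asked whether the level of these genes differed without enhancer A, and none of them was called. Of the 8 genes high enough to test, 0 passed an adjusted p of 5% over all 19373 genes (limma on log2 of the normalized count plus 1), and 0 had an unadjusted p under 0.05. Over all genes 0.372% were called, and 6.68% had an unadjusted p under 0.05, so that few calls could arise among 8 genes at this background. With reads recovered from the values, edgeR's quasi-likelihood test called 0 of the 8 (0.346% of all genes, 6.67% at an unadjusted p under 0.05), and DESeq2 called 0 (0.268% and 5.32%), each with 0 at an unadjusted p under 0.05. Wildtype and deletion libraries overlapped for every one of the 9 genes, as they did for most genes, the groups being separate in 0.588% of those tested. Normalized counts are reads scaled to a common library size. In a tissue sample, fewer cells of a type and less RNA in each cell cannot be told apart.

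**Figure D1:**
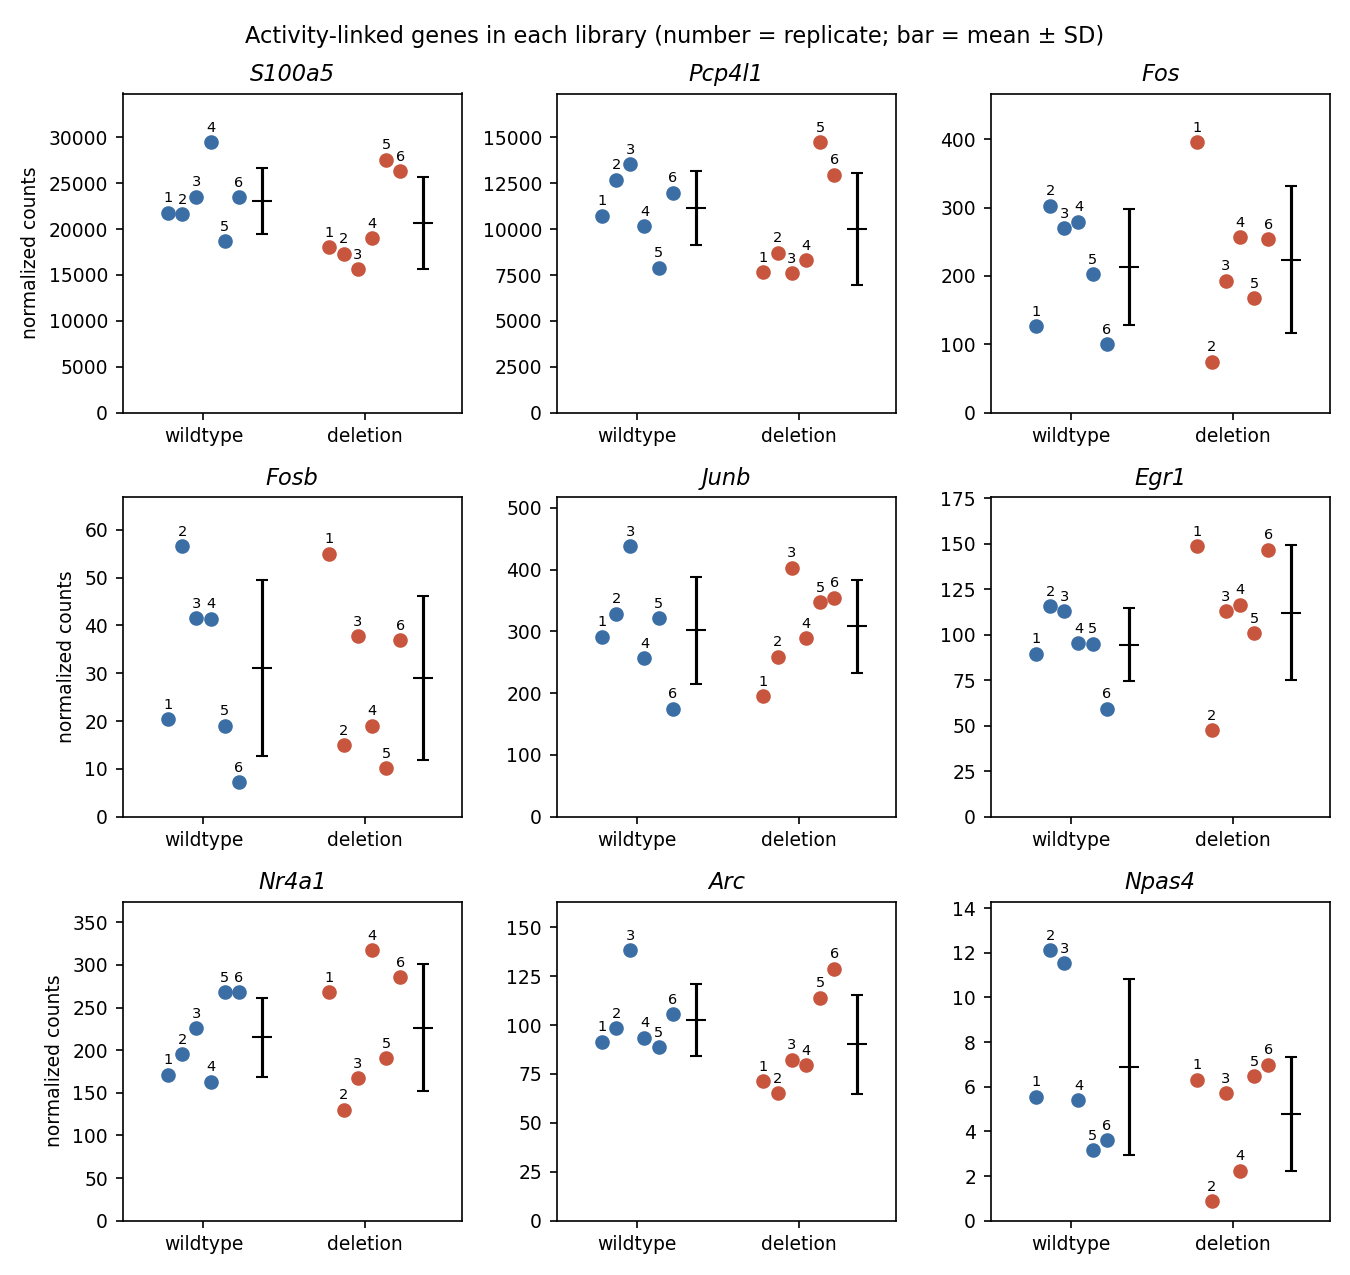
Normalized counts (vertical axes, starting at 0) of the 9 genes in 6 wildtype (blue) and 6 deletion (red) libraries, each point 1 library with its replicate number, and the bar the mean ± SD of the group. S100a5 and Pcp4l1 stand high in deletion libraries 5 and 6 and low in the other 4, while Fos is highest in deletion library 1 at 396 and lowest in deletion library 2 at 74.7.

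S100a5 (ENSMUSG00000001023.10, chromosome 3, 90608523 to 90611780) was by far the most abundant of the 9 and ranked number 43 among all rows by mean normalized count. Its normalized counts were 18663 at the lowest, 22619 at the median and 29454 at the highest in wildtype, and 15632, 18510 and 27555 in the deletion. In the deletion group libraries 1 to 4 lay between 15632 and 19012 and libraries 5 and 6 at 27555 and 26311, so that the 4 low libraries straddled the lower end of the wildtype range and the pair of high ones lay in its upper part. Wildtype averaged 23084 ± 3586 (SD, n = 6) and the deletion 20635 ± 5017. The log2 change was -0.18 ± 0.14 (SE; 95% interval -0.48 to 0.12; adjusted p 0.803 by limma), which allows deletion levels from 0.716 to 1.09 times those of wildtype.

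Pcp4l1 (ENSMUSG00000038370.6, chromosome 1, 171173262 to 171196268), ranked number 120, was arranged in the same way. It had 7897, 11360 and 13532 normalized counts at the lowest, median and highest in wildtype, and 7617, 8519 and 14743 in the deletion. Deletion libraries 5 and 6 were again the high ones, with 14743 and 12965, and the other 4 held at most 8728. Its log2 change was -0.19 ± 0.17 (SE; 95% interval -0.55 to 0.17; adjusted p 0.823 by limma). Both genes were below the wildtype mean in 4 of 6 deletion libraries.

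Because both are genes of mature olfactory neurons, their level was also set against Omp, the olfactory marker protein of those cells. Omp itself stood at 60400 ± 6696 normalized counts (wildtype) and 63115 ± 5927 (deletion). The log2 ratio of S100a5 to Omp ran from -1.83 to -1.21 in wildtype and from -2.01 to -1.08 in the deletion. Deletion libraries 5 and 6 had the highest ratios of all 12 libraries and deletion libraries 1 and 2 the lowest. The group means differed by -0.25 (two-sided exact permutation p 0.223, adjusted over both ratios 0.357). For Pcp4l1 the ratio ran from -3.07 to -2.01 in wildtype and from -3.24 to -1.99 in the deletion, a difference of -0.25 (two-sided exact permutation p 0.357, adjusted 0.357).

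Among the AP-1 genes, Fos (ENSMUSG00000021250.13, chromosome 12, 85473890 to 85477273) had 100.4 normalized counts at the lowest, 236 at the median and 303 at the highest in wildtype, and 74.7, 223 and 396 in the deletion. Both the highest and the lowest of the 12 libraries belonged to the deletion group, and they differed 5.30-fold. The means were nearly equal, 214 ± 84.8 (SD, n = 6) and 224 ± 108. The log2 change of 0.014 ± 0.35 (SE; adjusted p 0.994 by limma) had a 95% interval from -0.73 to 0.75, which allows anything from 0.604 to 1.69 times the wildtype level.

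Fosb (ENSMUSG00000003545.3, chromosome 7, 19302696 to 19310051), a close relative of Fos, was low and still more variable. It had 7.23, 30.9 and 56.6 normalized counts at the lowest, median and highest in wildtype and 10.2, 28.0 and 55.0 in the deletion, on 10 to 61 reads per library. The extremes of all 12 differed 7.83-fold, and the deletion range lay within that of wildtype. Its log2 change was -0.051 ± 0.47 (SE), with a 95% interval of -1.05 to 0.95 and an adjusted p of 0.984 (limma). Fosb lies on the chromosome of the deleted element. The third AP-1 gene, Junb (ENSMUSG00000052837.6, chromosome 8, 84974484 to 84978718), was steadier, with 175, 306 and 438 normalized counts in wildtype and 195, 318 and 403 in the deletion. Its log2 change was 0.044 ± 0.20 (adjusted p 0.966 by limma). Junb is the only one of the 9 that overlaps another annotated gene, Prdx2 on the opposite strand, over 351 bases. Reads of that stretch may have been split between them, and its value is less certain.

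Egr1 (ENSMUSG00000038418.7, chromosome 18, 34859823 to 34864984) had the largest positive estimate of the 8 genes tested. Its normalized counts were 59.3, 95.2 and 116 at the lowest, median and highest in wildtype and 47.5, 115 and 149 in the deletion. It exceeded the wildtype mean in 5 of 6 deletion libraries, and the lowest of all 12, number 2, was also a deletion library. The log2 change was 0.19 ± 0.24 (SE; 95% interval -0.32 to 0.70; adjusted p 0.876 by limma). Nr4a1 (ENSMUSG00000023034.7, chromosome 15, 101254269 to 101274795) had 163, 211 and 268 in wildtype and 130.1, 229 and 317 in the deletion, the wildtype range lying wholly within that of the deletion. Its log2 change was 0.031 ± 0.20 (adjusted p 0.976 by limma).

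Arc (ENSMUSG00000022602.14, chromosome 15, 74669083 to 74672570) had 88.7 normalized counts at the lowest, 95.9 at the median and 138 at the highest in wildtype, and 65.0, 80.9 and 129 in the deletion. The high deletion libraries were again numbers 5 and 6, at 114 and 129, and the other 4 lay below every wildtype library. With a log2 change of -0.21 ± 0.17 (SE; 95% interval -0.57 to 0.14; adjusted p 0.803 by limma) it had the largest negative estimate of the 8. Npas4 (ENSMUSG00000045903.8, chromosome 19, 4984355 to 4990316) rested on 1 to 10 reads per library and was too low for the main test, which required a mean of at least 10. It had 3.17, 5.47 and 12.1 normalized counts in wildtype and 0.879, 6.01 and 6.99 in the deletion, the highest values being those of wildtype libraries 2 and 3. With the requirement lowered to a mean of 1, its log2 change was -0.48 ± 0.46 (SE, adjusted p 0.839 by limma).

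**Figure D2:**
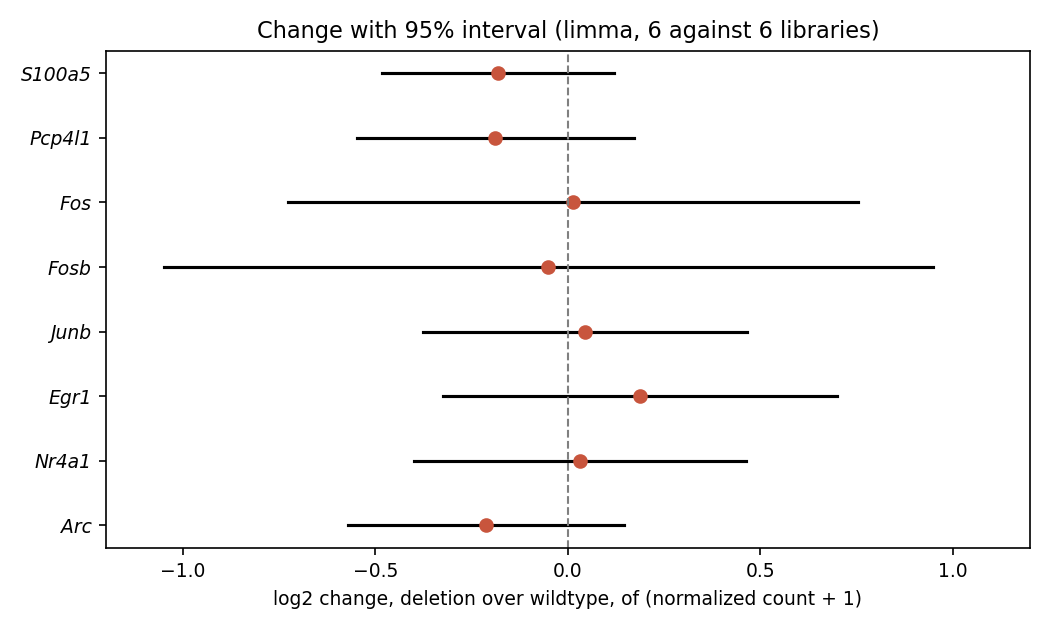
Log2 change of (normalized count + 1), deletion over wildtype (horizontal axis), for the 8 genes tested by limma on 6 against 6 libraries, with points for estimates and lines for 95% intervals. Every line crosses 0, and the widest is that of Fosb, from -1.05 to 0.95.

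Of the 8 estimates 4 were positive and 4 negative, with a median of -0.019, beside 52.6% positive and a median of 0.0087 over all 19373 genes. The authors' deposited table gave the same outcome for these genes, its adjusted p ranging from 0.929 for Egr1 to 0.992 for Junb and being blank for Npas4. The authors' deposited table gives shrunken log2 values of wildtype over deletion, 0.085 for S100a5, 0.085 for Arc and -0.086 for Egr1.

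Per kilobase of annotated exon, the mean over 12 libraries was 50601 normalized counts for S100a5, whose exons span only 432 bases, and 6713 for Pcp4l1. The immediate early genes followed far below, with 132 for Junb, 93.0 for Fos, 62.9 for Nr4a1, 31.5 for Arc, 23.1 for Egr1, 4.80 for Fosb and 1.41 for Npas4. The ranges over libraries did not overlap between S100a5 and Pcp4l1, between Pcp4l1 and Junb or between Egr1 and Fosb. The ranges of each other pair of neighbours overlapped. Library by library, Nr4a1 was still above Arc and Fosb above Npas4 in 12 of 12, while Junb was above Fos in 10, Fos above Nr4a1 in 10 and Arc above Egr1 in 11.

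The genes stood out more by their spread between animals of 1 genotype than by any difference between genotypes. The SD of log2 values within groups was 0.74 for Fos, where genes of the same abundance have 0.17 by the limma trend, a ratio of 4.25 that is larger than in 99.1% of all genes tested. The ratio was 2.76 for Pcp4l1, 2.71 for Junb, 2.47 for Nr4a1, 2.31 for Fosb, 2.13 for Egr1 and 1.88 for S100a5, each above that of at least 93.5% of genes. Arc had the lowest ratio, 1.36, with 80.6% of genes below it, and S100a5 the lowest SD itself, 0.28. These ratios describe the libraries and were not tested.

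**Figure D3:**
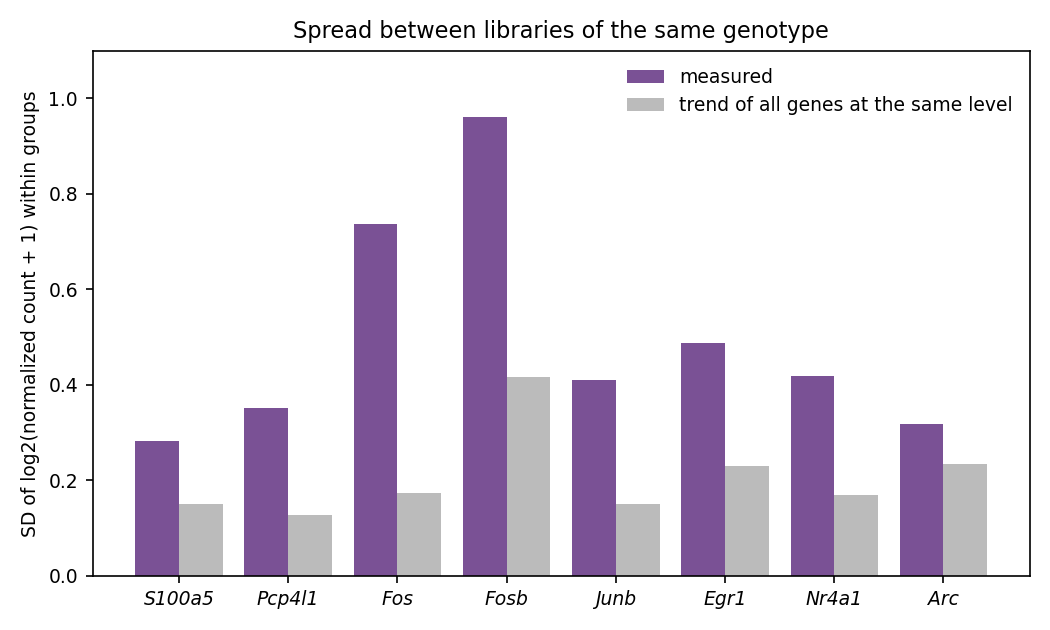
SD within groups of log2(normalized count + 1) (vertical axis) for the 8 tested genes (purple) and the value the limma trend gives for genes of the same mean level (grey). The purple bar is taller for every gene, with 0.74 against 0.17 for Fos and 0.32 against 0.23 for Arc.

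Libraries high in Fos were also high in Egr1 and Fosb. Across 12 libraries the log2 value of Egr1 followed that of Fos with Pearson's r 0.90 (permutation p 8.0e-05, adjusted over 8 genes 0.00064) and Spearman's rho 0.76 (permutation p 0.00601). Fosb followed Fos with r 0.78 (permutation p 0.00232, adjusted 0.00928) and rho 0.85 (permutation p 0.00099). Without deletion library 2 and wildtype library 6, the pair farthest from the median of Fos, r was 0.69 for Egr1 and 0.72 for Fosb (permutation test, adjusted p 0.111 for each), so that passing the test rests on those libraries. In the 8 libraries where Gm10800, a predicted gene, took no more than 1% of reads, r was 0.93 for Egr1 and 0.76 for Fosb, the latter with an adjusted p of 0.115 (exact permutation test). The relation was present within each genotype, with r of 0.87 in wildtype and 0.95 in the deletion for Egr1 and of 0.93 and 0.67 for Fosb (n = 6 each, not tested). Nr4a1 (r 0.45, rho 0.26), Junb (0.22, 0.070) and Arc (0.20, 0.077) did not pass with Fos (permutation p 0.142, 0.494 and 0.542 for r, and 0.413, 0.835 and 0.818 for rho). In wildtype and deletion r was -0.33 and 0.85 for Nr4a1 and 0.69 and -0.21 for Junb (n = 6 each, not tested). For Arc these were 0.19 and 0.23. Npas4 had r 0.63 and rho 0.50 (permutation p 0.0286 and 0.0995, adjusted 0.0763 for r).

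S100a5, Pcp4l1 and Arc formed another set, which was examined after the values had been seen. Pcp4l1 followed S100a5 with r 0.79 (permutation p 0.00331, adjusted over 8 genes 0.0265) and rho 0.78 (permutation p 0.00391), and r was 0.92 without deletion library 3 and wildtype library 4, the farthest from the median. Arc followed S100a5 with r 0.72 (permutation p 0.00873, adjusted 0.0349) and rho 0.80 (permutation p 0.00297), and r was 0.89 without the same libraries. For Arc with Pcp4l1, r was 0.84 (permutation p 0.00065) and rho 0.86 (permutation p 0.00074), and r was 0.85 without the farthest pair of libraries. The call for Pcp4l1 with S100a5 was lost on leaving out deletion library 1, 4, 5 or 6 (adjusted p 0.0504 to 0.0725), and that for Arc with S100a5 on leaving out any of 9 of the 12 libraries (adjusted p 0.0524 to 0.0968, permutation test). The relations with S100a5 lay mostly in the deletion group, where r was 0.96 for Pcp4l1 and 0.88 for Arc, against 0.34 and 0.19 in wildtype (n = 6 each, the difference not tested). As deviations from the group means they did not pass (r 0.77 and 0.68, permutation test adjusted p 0.114 and 0.129). In the 8 libraries low in Gm10800, r was 0.78 and 0.81 (exact permutation test, adjusted p 0.0886 for each). S100a5 showed no such relation with Fos (r 0.14, rho 0.13, permutation p 0.674 and 0.701). Over all 36 pairs of the 9 genes, 4 passed by r after adjustment, namely S100a5 with Pcp4l1, Pcp4l1 with Arc, Fos with Fosb and Fos with Egr1, while S100a5 with Arc did not (permutation test, adjusted p 0.0605). By rho 5 passed, the same 4 and S100a5 with Arc (permutation test, adjusted p 0.0342).

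**Figure D4:**
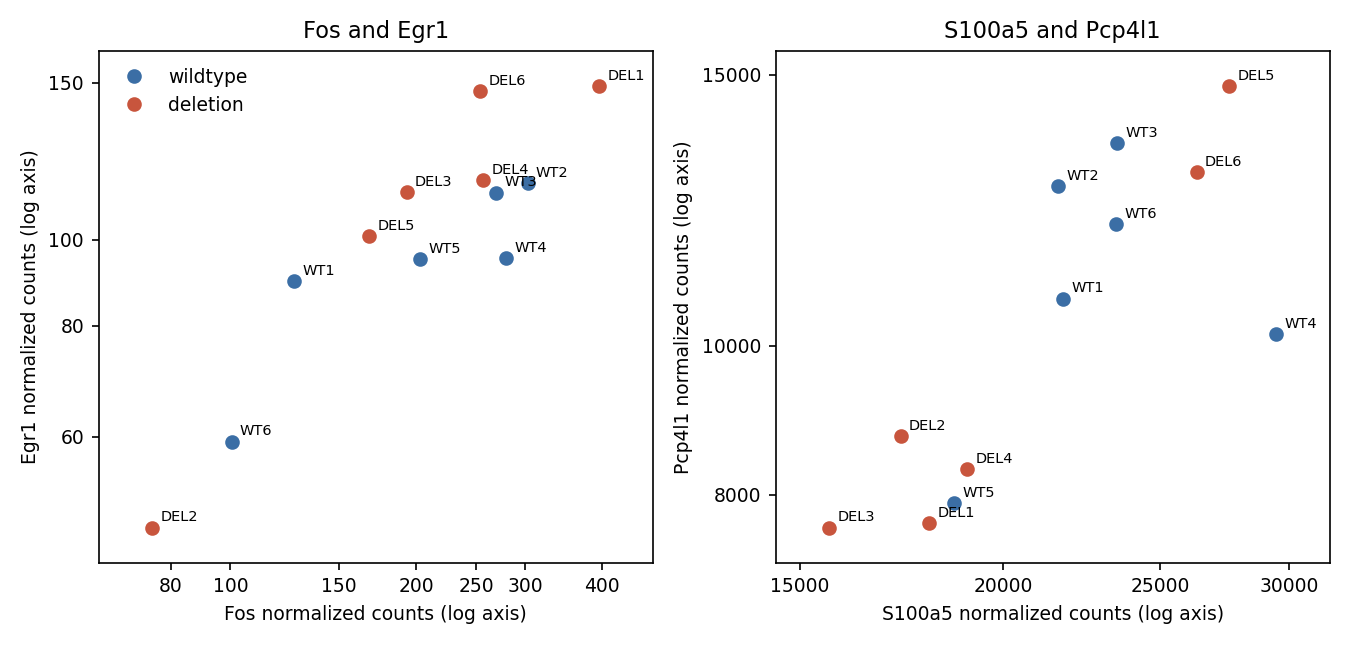
Normalized counts on log axes of Egr1 against Fos (left) and of Pcp4l1 against S100a5 (right), each point 1 library, wildtype (WT) in blue and deletion (DEL) in red. Deletion library 2 and wildtype library 6 are lowest in both Fos and Egr1, whereas in the right panel deletion libraries 5 and 6 stand at the upper end and deletion libraries 1 to 4 at the lower end.

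**Figure D5:**
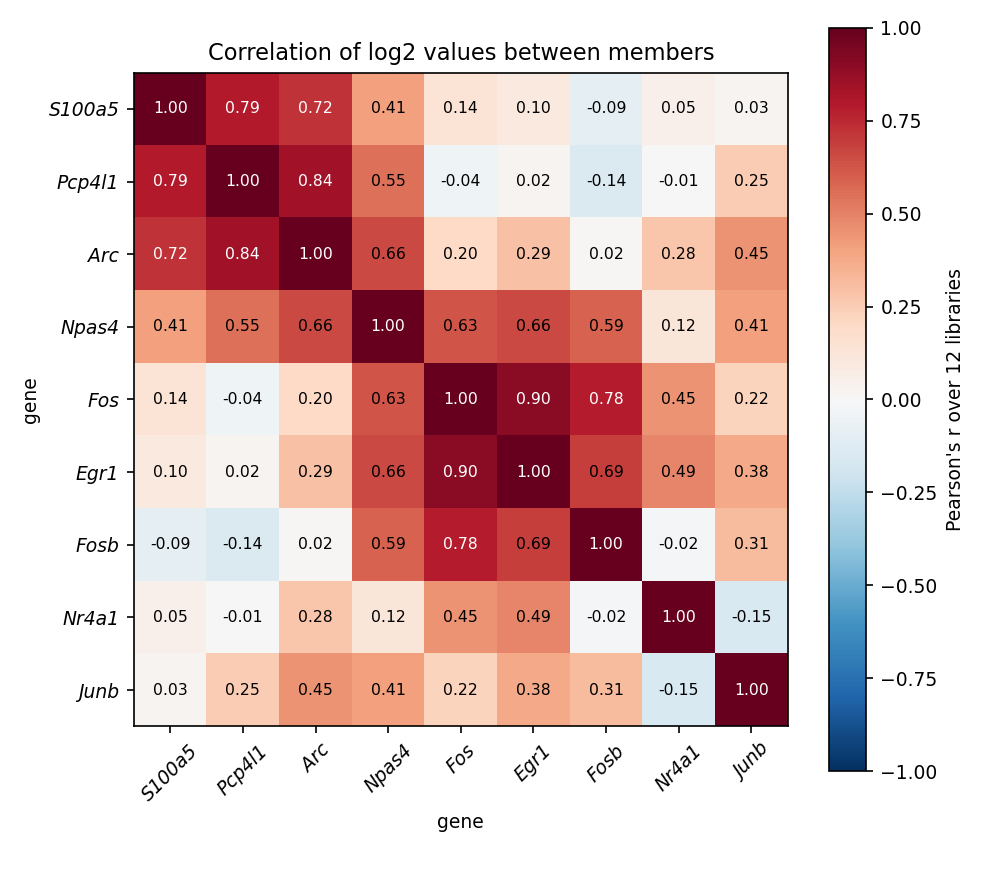
Pearson's r over 12 libraries between the log2 values of each pair of the 9 genes (both axes list the genes, colour from -1 in blue to 1 in red). A block of S100a5, Pcp4l1 and Arc has r from 0.72 to 0.84, and a block of Fos, Egr1 and Fosb has r from 0.69 to 0.90, while r between S100a5 or Pcp4l1 and those 3 genes lies between -0.14 and 0.14.

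The genes most like Fos in their deviations from the group means over the 12 libraries, leaving out clone names and the 9 genes themselves, were Rgs1 (r 0.89), Srms (0.85), Gnrh1 (0.85), Olfr802 (0.80) and Cd300lf (0.80). Olfr802, an odorant receptor, had a mean of 89.7 normalized counts and the other 4 means of 15.2 to 25.9. Rgs1, a regulator of G protein signalling of leukocytes, ran from 1.76 in deletion library 2 to 36.4 in wildtype library 2. Those most like S100a5 were Ppp1r15a (r 0.93), Fetub (0.90), Pir (0.90), Ndrg3 (0.90) and Cenpn (0.89). Each of these 5 was highest in deletion library 5. Ppp1r15a, which encodes a phosphatase subunit of the stress response, ran from 1038 to 1451 normalized counts. With 12 libraries and 19373 genes, likeness of this size is a description of these libraries.

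No gene of the wider activity programme was called either, over 6 lists holding 109 genes. Of the 105 that could be tested, 0 were called by limma and 7 had an unadjusted p under 0.05, against 6.68% of all genes. The edgeR and DESeq2 tests on recovered reads called 0 (0.346% and 0.268% of all genes). By edgeR 8 of 105 had an unadjusted p under 0.05 (7.62%, against 6.67% of all genes). By DESeq2 these were 8 of 107 (7.48%, against 5.32%). Among 20 tested of 23 other immediate early genes, 15 estimates were positive with a median log2 change of 0.056. Over all genes 52.6% of estimates were positive, with a median of 0.0087. Counts by direction in this list and the following ones were not tested. Ier2, an immediate early gene of the nucleus, went from 412 ± 92.5 normalized counts to 507 ± 71.4, a log2 change of 0.32 ± 0.14 (SE, adjusted p 0.744 by limma), and exceeded the wildtype mean in all 6 deletion libraries. Maff, a small Maf factor, had -0.21 ± 0.12, and Klf2, a Krüppel-like factor, 0.24 ± 0.15.

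Genes that damp the response or answer stress gave no call. Of 24 tested, 19 estimates were positive, with a median of 0.094, beside 52.6% positive and a median of 0.0087 over all genes. Dusp5, a phosphatase of ERK, went from 201 ± 39.0 to 245 ± 32.0 normalized counts (log2 change 0.30 ± 0.12, adjusted p 0.734 by limma). Zfp36, which destabilises AU-rich messages, went from 151 ± 26.3 to 188 ± 33.6 (0.31 ± 0.13, adjusted p 0.744 by limma). Ier3 had a log2 change of 0.20 ± 0.10. Of 13 tested effector and plasticity genes 8 estimates were positive. Ptgs2, the inducible cyclooxygenase, had the largest estimate, from 62.8 ± 21.7 to 108 ± 47.4, a log2 change of 0.73 ± 0.27 (SE, unadjusted p 0.0159, adjusted p 0.692 by limma), with 5 of 6 deletion libraries exceeding the wildtype mean. Inhba, an activin subunit, had -0.31 ± 0.17 and Rgs4 -0.34 ± 0.20.

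For genes linked to activity in olfactory neurons, 7 of 9 estimates were negative, with a median of -0.068 and 0 called. Lrrc3b went from 1196 ± 280 to 980.5 ± 146 normalized counts (log2 change -0.27 ± 0.14, adjusted p 0.748 by limma), with every deletion library under the wildtype mean. The protocadherin Pcdh10 had -0.22 ± 0.16 and Cidea -0.12 ± 0.11. Among 26 upstream regulators 13 estimates were positive and 13 negative. Map2k2, a kinase of the ERK pathway, went from 859 ± 108 to 995 ± 19.1 (log2 change 0.22 ± 0.075, unadjusted p 0.00932, adjusted p 0.616 by limma). Mef2a had -0.12 ± 0.061 and Srf, serum response factor, 0.21 ± 0.11. Heat shock genes, which rise with stress of the tissue, had a median of 0.018 over 13. Hsph1 (-0.20 ± 0.066, adjusted p 0.616 by limma) and its partner Hspa8 (-0.28 ± 0.11, adjusted p 0.717 by limma) lay under the wildtype mean in every deletion library, and Hspe1 had 0.10 ± 0.072.

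Whether these genes moved with the cell makeup of a library was looked at through 13 marker lists. Cell types of the mucosa were checked by the first marker of their lists. In wildtype, Cyp2g1 of supporting cells had 61192 ± 5946 normalized counts, Gap43 of immature neurons 1788 ± 271, Foxj1 of ciliated cells 2411 ± 123, Krt5 of basal cells 432 ± 92.3, Ascl3 of microvillar cells 415 ± 46.4 and Ptprc of leukocytes 284 ± 27.4. Markers of blood, vessels, bone and muscle were read too, with Hba-a1 of red cells at 282 ± 93.4, Pecam1 of endothelium at 228 ± 53.1, Bglap of bone at 234 ± 109 and Acta1 of muscle at 17.1 ± 6.85. Of 59 markers tested by limma 0 were called and 5, or 8.47%, had an unadjusted p under 0.05, against 6.68% of all genes. By edgeR these were 0 and 4 of 59 (6.78%, against 6.67%), and by DESeq2 0 and 9 of 61 (14.8%, against 5.32%). The 5 by limma were Neurog1 of progenitors with a log2 change of 0.51 ± 0.15 (adjusted p 0.484), Cyp1a2 of supporting cells with 0.18 ± 0.077, Lyz2 of immune cells with 0.25 ± 0.11, Dnah5 of ciliated cells with -0.29 ± 0.11 and Hba-a1 with -0.55 ± 0.24 (adjusted p of limma 0.706 to 0.744 for the last 4). With the mean level of the mature neuron markers as a covariate, the log2 change of Pcp4l1 was -0.045 in place of -0.19 and that of Arc -0.091 in place of -0.21. The log2 ratio of Pcp4l1 to Omp differed by -0.25, so the covariate and the ratio moved its estimate in opposite directions. The summed level of the 10 mature neuron markers was 159387 to 197148 normalized counts in wildtype and 172726 to 198266 in the deletion, and that of the 5 immune markers 2297 to 3715 and 2978 to 3844. Of the 10 mature neuron markers 9 had a positive estimate, with a median log2 change of 0.080 against 0.0087 over all genes. None was called, and 3 had an unadjusted p under 0.05 by DESeq2, with 0 by limma and 0 by edgeR. Of 30 relations of Fos or S100a5 with the mean log2 level of these lists, with Gm10800 and with depth, 0 passed after adjustment (permutation test, smallest adjusted p 0.871). For Fos with depth r was -0.52 and rho -0.36 (permutation p 0.0831 and 0.254), and -0.15 without the farthest pair of libraries. For Fos with the neuronal progenitor list r was -0.51 and rho -0.59 (unadjusted permutation p 0.0871 and 0.0459). Without the farthest pair that r was -0.52. For S100a5 with the immature neuron list r was 0.52 and rho 0.45 (unadjusted permutation p 0.0851 and 0.142), and r was 0.30 without its farthest pair. For S100a5 with the mature neuron list r was -0.18 and rho -0.12 (permutation p 0.570 and 0.716), and -0.66 without the farthest pair.

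The libraries held 13011763 to 23039733 recovered reads. The 4 libraries over the 1% limit for Gm10800, wildtype 2 and 3 and deletion 3 and 6, drew 2.78% to 7.80% of their reads from it. Among the other 8, wildtype libraries 1, 4, 5 and 6 drew 0.0790% to 0.885%. Deletion libraries 1, 2, 4 and 5 drew 0.00133% to 0.0103%. Within the 8, the Gm10800 share thus went with genotype and cannot be told apart from it. Within the 8, the difference between group means on the log2 scale was -0.20 for S100a5, -0.084 for Pcp4l1, 0.20 for Fos, 0.11 for Fosb, 0.068 for Junb, 0.20 for Egr1, 0.019 for Nr4a1 and -0.23 for Arc. In the other 4 it was -0.15, -0.40, -0.37, -0.37, -0.0047, 0.17, 0.056 and -0.18 in the same order. Fos, Fosb and Junb had opposite signs in the 2 sets of libraries. In the 8 libraries 0 of the genes were called by limma. The other 4, 2 against 2, were not tested.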

How the data were processed

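Total RNA of 12 olfactory mucosae, 1 library per animal, was sequenced by the submitters. Per the submitters' processing notes, STAR 2.6.0, DESeq2 and build GRCm38.p6 were used. How reads were counted, and whether by strand, is not given in the sources used here. Per the file headers, the 12 library columns and the base mean hold normalized counts, a signal equal to reads divided by a size factor. The authors also deposited their own comparison: log2 values (wildtype over deletion), a score for the test and p-values. Dividing each library by the value of a single read gave whole reads, within 0.01, for at least 99.987% of values. No pair of libraries was identical (0 pairs).

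Genotypes were compared by limma 3.58.1, trend option on, using log2(value + 1) of the 19373 genes with a mean of at least 10, adjusted by Benjamini-Hochberg at 5%. This scale understates changes of low genes. edgeR 4.0.16 and DESeq2 1.42.0 on recovered reads were alternatives. Ratios to Omp were compared by exact permutation over 924 splits, and correlations by 100000 permutations. Exon lengths and positions came from GENCODE M21 on GRCm38. The fit was tested on simulated data with the same underlying spread for every gene, narrower than that of Fos. It does not show what changes could be found in these genes. Versions were Python 3.11.15 with scipy 1.17.1, and R 4.3.3.

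Members and lists were chosen with earlier results of these data known. Named were all 9 members, in each list the called genes and the 3 of smallest p, the 5 genes most like Fos and S100a5, and the first gene of each marker list, apart from some that are not reported here. Jund and Egr2, on the list of immediate early genes, were not analysed here.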

Additional observations from a re-analysis of the deposited data

Results flagged for a closer look

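Of 22 groups of 6 libraries examined (the 9 genes and both ratios to Omp in each genotype), 1 held a library far from the rest, where chance gives about 1 in 20. Arc in wildtype library 3 stood at 138 normalized counts, and the next highest wildtype library at 106. The gap was 0.661 of the range of the group, above the limit of 0.625 for 6 libraries. Without that library the log2 change of Arc was -0.12, against -0.21 with it, and it passed the test in neither case. Wildtype library 3 is also among the 4 libraries rich in Gm10800. With Gm10800 as a covariate the log2 change of Arc was -0.027, and in the 8 libraries low in Gm10800 it was -0.23. Among those 8, Gm10800 was itself lower in every deletion library than in every wildtype library.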

How the results depend on the processing

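Of the 9 genes and the 6 lists, 0 genes passed an adjusted p of 5% under any of 23 alternative settings in which they were tested, and the smallest adjusted p of a member was 0.488 (Junb). The direction was kept in all of them for S100a5, Pcp4l1, Egr1 and Arc, but not the size: with Gm10800 as a covariate Arc had -0.027 in place of -0.21, Egr1 0.43 in place of 0.19, Pcp4l1 -0.084 in place of -0.19 and Junb 0.39 in place of 0.044, and with mature neuron markers as a covariate Pcp4l1 had -0.045 and Arc -0.091. It turned for Fos with mature neuron markers as a covariate (-0.024), for Fosb with Gm10800 as a covariate (0.50) and in the 8 libraries low in Gm10800 (0.11), and for Nr4a1 with Gm10800 as a covariate (-0.038). The cause was not tested, and since Gm10800 differed between genotypes among those 8 libraries, its covariate is partly tied to genotype. Leaving out 1 library gave -0.18 to 0.29 for Fos, -0.39 to 0.19 for Fosb, -0.10 to 0.17 for Junb, -0.080 to 0.18 for Nr4a1, 0.060 to 0.41 for Egr1, -0.27 to -0.11 for S100a5, -0.31 to -0.12 for Pcp4l1 and -0.32 to -0.12 for Arc. The ratios to Omp ranged from -0.36 to -0.17 for S100a5 and from -0.40 to -0.15 for Pcp4l1 on leaving out 1 library.

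Without the farthest pair of libraries, r with Fos was 0.72 for Fosb, 0.69 for Egr1, -0.045 for S100a5, -0.39 for Junb and -0.14 for Arc. In the 8 libraries it was 0.76 for Fosb and -0.067 for Arc, and r with S100a5 was 0.78 for Pcp4l1, 0.81 for Arc and -0.25 for Nr4a1. As deviations from group means, r with S100a5 was 0.77 for Pcp4l1 and 0.68 for Arc. Leaving out 1 library, r with Fos ran from -0.11 to 0.30 for S100a5, -0.23 to 0.16 for Pcp4l1, -0.061 to 0.55 for Junb and -0.19 to 0.45 for Arc, and that of Npas4 reached 0.75 without deletion library 4 (permutation test, adjusted p 0.0205). With S100a5 it ran from 0.75 to 0.93 for Pcp4l1, 0.67 to 0.84 for Arc, -0.25 to 0.097 for Fosb, -0.13 to 0.26 for Junb, -0.21 to 0.23 for Egr1 and -0.18 to 0.25 for Nr4a1.

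Between libraries of the same replicate number, deviations from the group means had r from -0.15 to 0.36. The highest was that of number 3, whose wildtype and deletion libraries are both rich in Gm10800. Whether the numbers pair the animals is not stated in the labels and cannot be told from these values. With the replicate block 0 members were called. Its log2 changes equal those without it by construction, since each number holds 1 library of each genotype. Npas4 rested on 68 reads in all and Fosb on 350.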
